A study of Mus musculus with 21 samples.

Results

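The elastic fibre and microfibril genes are 10 named rows of an expression table of 20872 genes, chosen by symbol and described here in the aortic valve of the mouse. They are Eln, Fbn1, Fbn2, Mfap2, Mfap4, Mfap5, Fbln1, Fbln2, Fbln5 and Emilin1. All 10 were listed and all 10 passed the filter on low values, a mean of 1 FPKM or more (fragments scaled to gene length and library size). The series holds 21 RNA-seq libraries in 5 groups, and every mouse carried Terc-/- (no telomerase RNA) in its generation 2, so no group has normal telomere maintenance. The WT group (4 libraries) was N1+/+, meaning 2 intact copies of Notch1, with healthy valves and control solvent. The other groups were heterozygous for Notch1 (N1het): healthy valves with solvent (6 libraries), healthy valves with XCT790 (5), valves with stenosis and solvent (3), and valves with stenosis and XCT790 (3). XCT790, an inverse agonist of the nuclear receptor ERRα, was injected into the abdomen once a day at 5 mg/kg for 4 weeks from an age of 4 weeks. All 21 libraries, also those with solvent, share this duration and starting age by the labels. The age at collection is not stated beyond that. Stenosis, the narrowing of the valve opening, is a label of the disease state and not a treatment, so it was not assigned to the mice. Groups follow the titles, which the sample descriptions match. In 6 libraries the agent field of the labels contradicts both: N1het healthy XCT790 1 to 3 carry solvent there, and N1het stenosis 1 to 3 carry XCT790. Results on XCT790 therefore follow the titles and descriptions, against that field.

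Elastic fibres give a valve leaflet its recoil. Their core is elastin, secreted as a soluble precursor, laid onto a scaffold of fibrillin microfibrils and crosslinked by enzymes of the lysyl oxidase family. Microfibril-associated glycoproteins, fibulins and EMILIN-1 sit on the microfibrils or between them and the core, and fibrillins also hold latent TGF-beta in the matrix. In the aortic valve, elastin is concentrated in the layer that faces the ventricle, and interstitial cells make most of the matrix.

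Libraries held 8.42 to 27.27 M reads, as recovered from the FPKM steps (median 13.66 M reads). A deep set of 6 libraries, each over 16 M reads, had 0.06% to 0.52% of reads on 7 mitochondrially encoded genes, against 0.85% to 8.4% in the other 15. It held WT 1, N1het healthy 1 and 4, N1het healthy XCT790 1 and 2 and N1het stenosis XCT790 2, and no library of N1het stenosis with solvent. Cardiomyocyte markers split off 7 libraries, with a mean log2 level of 5.79 or more against 3.87 or less in the rest: 1 of 4 WT, 4 of 11 healthy N1het and 2 of 6 stenotic libraries. The fibroblast and interstitial cell markers were all present in every library, led by Dcn at a mean of 4101 FPKM, Vim at 2153 and Dpt at 1287. Notch1 itself ran from 19.4 to 50.03 FPKM and differed between N1het healthy and WT valves by a log2 value of 0.06 ± 0.25 (SE; limma adjusted p = 0.972). Esrra, which encodes the target of XCT790, ran from 0.364 to 3.46 FPKM and did not pass the test with XCT790 in healthy valves (0.29 ± 0.31, adjusted p = 1).

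Sequences are shown for the members with a promoter in the RefSeq table (build GRCm38.p6) and an unadjusted p under 0.05 in the averaged stenosis comparison described later. They show what precedes the start of genes whose levels are compared here. Each run comes from the 250 bases before the annotated start and reads 5′ to 3′ on the gene's strand (for Mfap2, only the 154 bases that no annotated transcript of GENCODE vM21 covers with an exon), and capitals mark matches to the searched motifs. Windows of 6 members were searched, namely Fbn1, Mfap2, Emilin1, Fbln2, Fbln5 and Fbln1, with 9 windows in all. Fbn2 was left out of this search. Each of the 3 genes shown has 2 windows, of which 1 is printed, and Mfap4, Mfap5, Eln and Fbn2 are shown without sequence.
Fbln1 (chr15:85205699-85205948, plus strand): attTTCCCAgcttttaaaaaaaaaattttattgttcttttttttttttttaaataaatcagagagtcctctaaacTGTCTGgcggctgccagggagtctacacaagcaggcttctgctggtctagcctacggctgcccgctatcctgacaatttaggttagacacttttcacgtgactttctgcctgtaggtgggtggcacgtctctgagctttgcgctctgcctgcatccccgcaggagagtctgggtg
Mfap2 (chr4:141010483-141010636, plus strand): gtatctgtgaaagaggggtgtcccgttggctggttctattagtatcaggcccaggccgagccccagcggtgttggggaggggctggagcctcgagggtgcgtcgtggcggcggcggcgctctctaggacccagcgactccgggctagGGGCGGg
Fbln5 (chr12:101819120-101819369, minus strand): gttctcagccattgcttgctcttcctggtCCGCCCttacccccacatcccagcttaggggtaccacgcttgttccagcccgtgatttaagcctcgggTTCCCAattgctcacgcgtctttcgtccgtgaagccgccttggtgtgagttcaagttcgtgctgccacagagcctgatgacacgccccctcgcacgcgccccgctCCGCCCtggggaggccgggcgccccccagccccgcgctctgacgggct

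The searched motifs, on both strands, were the core site of RBPJ (TGGGAA), the DNA-binding partner of Notch, the half-site of ERR receptors (AAGGTCA), the SMAD box (CAGACA), the GC box (GGGCGG) and the TATA box (TATAAA). Windows of 300 bases, from 250 before to 50 after the start, were searched. The RBPJ core stood in 3 of the 9 windows, of Fbn1, Fbln5 and Fbln1, and in 25.6% of all 32851 promoters in the table. The GC box stood in 5 windows (5 members) and in 35.7% of promoters. For the SMAD box these were 5 windows (4 members) and 21%. The ERR half-site and the TATA box matched in none of the 6 members, against 4.72% and 13.6% of promoters. In the printed runs the capitals of Fbln1 are an RBPJ core and a SMAD box, those of Mfap2 are a GC box, and those of Fbln5 are an RBPJ core between 2 GC boxes. The printed matches do not overlap. A match is a string of letters and not a measured binding site.

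The members differed widely in level per length. Over the 21 libraries, Mfap4 averaged 461 FPKM and ranked 118th of the 20872 genes, followed by Fbln1 (186 FPKM), Fbln5 (142), Fbn1 (70.8), Mfap2 (65.5), Mfap5 (57.9), Eln (57.0), Fbln2 (37.2) and Emilin1 (30.6). Fbn2 stood far below the others at 1.64 FPKM and ranked 13574th. Per length, 6 members stood above Eln, the gene of the elastic core.

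**Figure D1:**
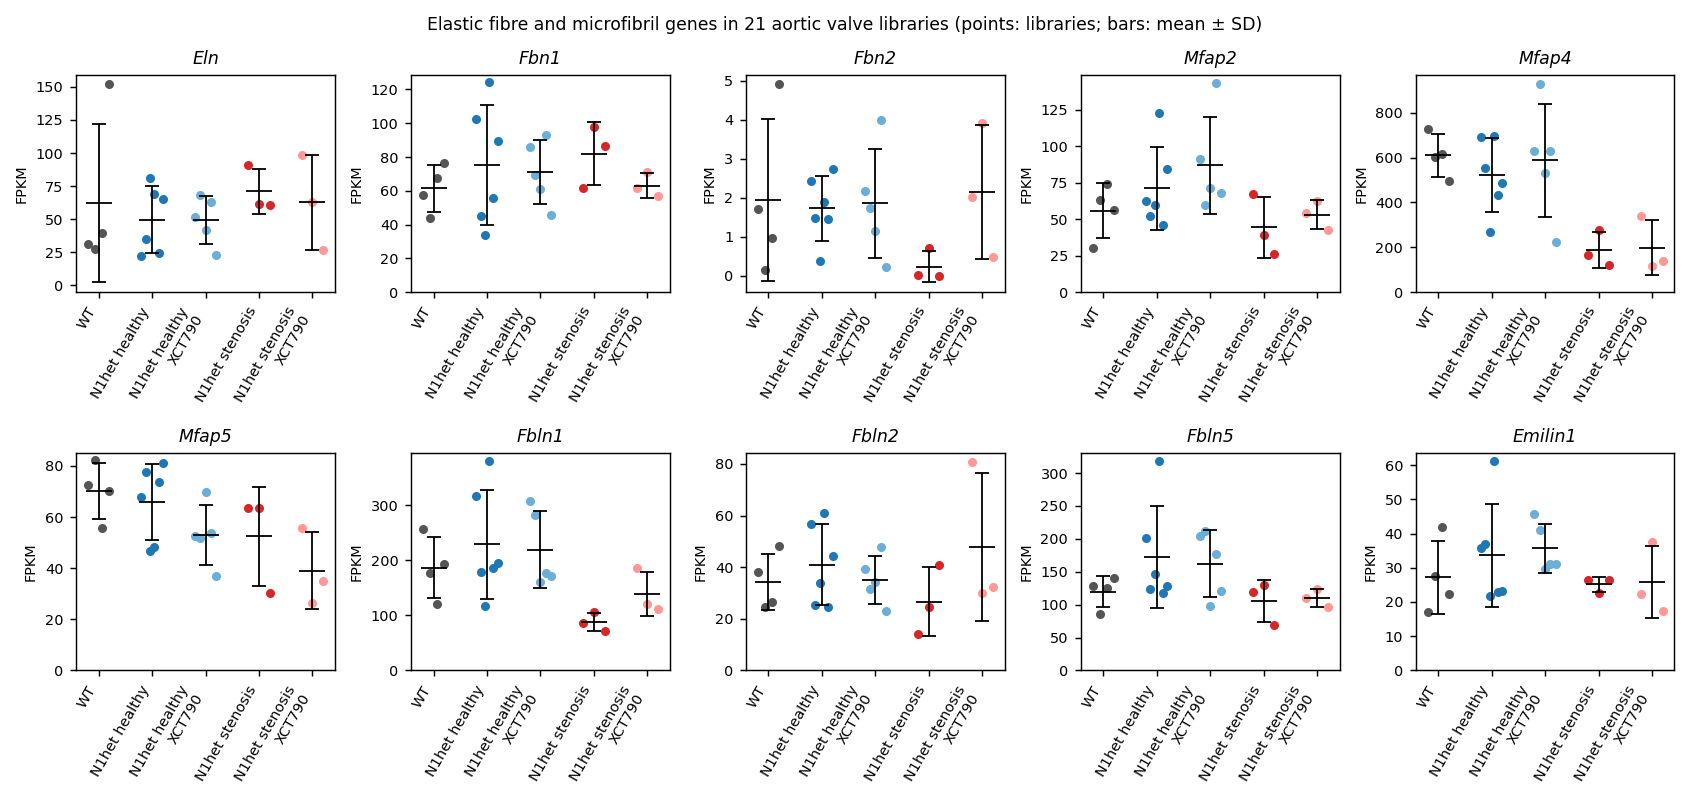
FPKM of each of the 10 genes by group, on a linear axis of its own for each gene; points are libraries and bars the mean ± SD. Mfap4 lies at 118 to 338 FPKM in the 6 stenotic libraries and at 224 to 928 in the 11 healthy N1het libraries, while Eln and Fbn1 overlap throughout.

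Stenotic N1het valves had less Mfap4 message than healthy N1het valves, and Mfap4 was the only 1 of the 10 genes that passed the test. Mfap4 (ENSMUSG00000042436) encodes microfibril-associated protein 4, a secreted glycoprotein of the fibrinogen-related family that binds elastin and fibrillin. The stenotic libraries with solvent held 168, 277 and 120 FPKM, and those with XCT790 held 338, 118 and 138 FPKM. The healthy N1het libraries with solvent ran from 268 to 698 FPKM with a median of 519, and those with XCT790 held 628, 928, 533, 628 and 224 FPKM. The groups overlapped at their edges: N1het healthy 3 and N1het healthy XCT790 5 lay below the highest stenotic library, N1het stenosis XCT790 1. Over all libraries of both agents, the stenotic mean was 193 ± 92.6 FPKM (SD, n = 6) and the healthy N1het mean 552 ± 200.2 FPKM (n = 11).

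On the scale of log2(FPKM + 1), Mfap4 differed by -1.54 ± 0.28 (SE; limma adjusted p = 0.0171 over all genes tested), a 2.90-fold lower level with each agent weighted equally. The 1 call among 10 members stands beside 56 calls among 14966 genes tested (0.374%), of which 41 were lower (0.274%) and 15 higher (0.1%). With the agent ignored because of the contradicting labels, a fit added after seeing the data, the difference was -1.53 ± 0.27 (adjusted p = 0.0111). The call was lost outside the deep set (-1.10 ± 0.30, adjusted p = 0.357, a setting with 0 calls over all genes). It was also lost without N1het stenosis 3, N1het stenosis XCT790 2 or N1het stenosis XCT790 3, where the difference was -1.40, -1.39 and -1.45 (adjusted p = 0.0741, 0.0527 and 0.0612). The deep set held only 1 stenotic library, at 118 FPKM, and gave no comparison of its own.

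Cell markers differed along with Mfap4. The summed FPKM of 10 fibroblast markers ran from 6223 to 8386 in the 6 stenotic and from 8451 to 12939 in the 11 healthy N1het libraries. That of 10 macrophage markers ran from 1662 to 6889 and from 861 to 3160. With the mean fibroblast marker level as a covariate, a fit added after seeing the data, the Mfap4 difference was -0.69 ± 0.35 (SE; limma adjusted p = 0.848), and no gene was called. That level was 7.76 to 8.21 on the log2 scale in stenotic and 8.10 to 8.97 in healthy N1het libraries, so marker level and stenosis largely cannot be told apart. In bulk tissue, fewer cells of a type and less RNA per cell cannot be told apart either.

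Fbln1 (ENSMUSG00000006369), which encodes fibulin-1, a calcium-binding glycoprotein of basement membranes and elastic fibres, had the next largest difference but did not pass the test. The stenotic libraries with solvent held 86.1, 106 and 72.3 FPKM, and those with XCT790 held 186, 120 and 112 FPKM. The healthy N1het libraries with solvent ran from 117 to 380 FPKM with a median of 191, and those with XCT790 held 309, 282, 160, 177 and 171 FPKM. All 3 stenotic libraries with solvent lay below all 6 healthy ones, as 5.46% of genes tested had no overlap in 1 direction or the other. The stenotic libraries with XCT790 overlapped the healthy ones. The averaged log2 difference was -0.96 ± 0.23 (SE; limma adjusted p = 0.0721), or 1.94-fold lower. It passed the test with the replicate number as a block (-0.97, adjusted p = 0.0404), with the deep set as a covariate (-0.82, 0.0381), with muscle marker levels as covariates (-1.03, 0.0363), with voom quality weights (-0.94, 0.0282) and without N1het healthy 3 (-1.04, 0.0298). With each other N1het library left out in turn, its adjusted p ran from 0.057 to 0.239. Outside the deep set it was at -0.58 (0.513), and with the fibroblast marker level as a covariate at -0.07 ± 0.24 (0.985).

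Both other fibulins lay closer to the healthy valves. Fbln5, which encodes fibulin-5, a protein that binds elastin, lysyl oxidase-like 1 and integrins and is needed for elastic fibre assembly, held 119, 129 and 68.6 FPKM in stenotic valves with solvent and 110, 124 and 96.4 with XCT790. Healthy N1het valves ran from 97.3 to 318 FPKM with a median of 147, so the groups overlapped. All 6 stenotic libraries lay under that median, and so did the WT libraries, at 128, 85.3, 125 and 141 FPKM. The log2 difference was -0.58 ± 0.22 (SE; limma adjusted p = 0.298). Fbln2, which encodes fibulin-2, a partner of fibrillin-1 in valves and vessels, ran from 14.2 to 80.9 FPKM in stenotic valves and from 22.9 to 61.0 in healthy N1het valves. Both its lowest and its highest library were stenotic, N1het stenosis 1 and N1het stenosis XCT790 1. Its log2 difference was -0.16 ± 0.27 (limma adjusted p = 0.879).

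The 2 microfibril-associated glycoproteins named MAGP-1 and MAGP-2 had lower values in stenotic valves that did not pass the test. Mfap2 encodes MAGP-1, a small protein bound to fibrillin that also binds TGF-beta. It held 67.4, 39.3 and 26.2 FPKM in stenotic valves with solvent, 54.1, 62.2 and 42.8 with XCT790, and 45.9 to 143 (median 68.1) in the 11 healthy N1het libraries. All 6 stenotic libraries lay under the healthy N1het median. So did WT 1, 2 and 4, at 30.1, 63.0 and 56.0 FPKM, while WT 3 held 74.1. N1het stenosis 3 held the lowest level of all 21 libraries. The log2 difference was -0.67 ± 0.25 (SE; limma adjusted p = 0.278). Mfap5 encodes MAGP-2, which binds fibrillins and can bind Notch receptors. It held 63.7, 63.4 and 30.1 FPKM in stenotic valves with solvent, 55.8, 26.6 and 34.9 with XCT790, and 36.8 to 81.1 (median 53.8) in healthy N1het valves. Its log2 difference was -0.42 ± 0.20 (limma adjusted p = 0.435), and 3 of 6 stenotic libraries lay above the healthy median.

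Neither elastin nor fibrillin-1 passed the test, and both estimates were positive. Eln, which encodes the elastin precursor, held 90.8, 61.8 and 61.1 FPKM in stenotic valves with solvent, 98.9, 62.7 and 26.5 with XCT790, and 22.2 to 81.0 (median 51.4) in healthy N1het valves. Its log2 difference was 0.45 ± 0.37 (SE; limma adjusted p = 0.696), with a 95% interval from -0.32 to 1.22. Fbn1, which encodes fibrillin-1, the main structural protein of microfibrils and the gene of Marfan syndrome, ran from 56.7 to 97.9 FPKM in stenotic and from 34.0 to 124 in healthy N1het valves. All 6 of its stenotic libraries lay inside the healthy range, and its log2 difference was 0.06 ± 0.24 (limma adjusted p = 0.960; 95% interval -0.44 to 0.55). These intervals leave room for a change of either sign.

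Fbn2 encodes fibrillin-2, which is made mostly in development, and it was counted by few reads. The stenotic libraries with solvent held 1, 65 and 0 reads, and those with XCT790 held 328, 729 and 50. The other libraries ran from 17 reads in WT 2 to 604 in N1het healthy XCT790 4. In N1het stenosis 3, where no read fell on Fbn2, a level of up to 0.0315 FPKM (3 reads) would be allowed by counting alone. The averaged log2 difference was -0.50 ± 0.39 (SE; limma adjusted p = 0.675). Its size depended on the scale: it was -1.38 with a pseudocount of 0.1, -0.15 with a pseudocount of 5 and -2.66 with voom on recovered reads, with no call in any of them. Emilin1 encodes EMILIN-1, a glycoprotein at the interface of elastin and microfibrils whose loss in mice is known to affect the aortic valve. It ran from 17.4 to 37.5 FPKM in stenotic and from 21.7 to 61.3 in healthy N1het valves, with a log2 difference of -0.41 ± 0.23 (limma adjusted p = 0.522).

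Taking the 10 genes together, 8 had a lower and 2 a higher estimate in stenotic valves, with a median log2 difference of -0.46. Over all genes tested the median was 0.0022, with 7466 lower and 7500 higher. An unadjusted p under 0.05 was found for 5 of the 10 members and for 1721 of the 14966 genes (11.5%). No member had all 6 stenotic libraries outside the range of the 11 healthy N1het libraries (0.147% of genes tested did). The summed FPKM of the 10 genes was 713 ± 179 (SD, n = 6) in stenotic and 1281 ± 373 (n = 11) in healthy N1het valves. Within that sum Mfap4 made up 26.1% ± 6.27 in stenotic and 42.3% ± 6.88 in healthy N1het valves. Eln made up 9.35% ± 2.93 and 4.07% ± 2.23, and Fbn1 10.7% ± 3.41 and 5.67% ± 1.17. Since shares of 1 sum move together, these are descriptions without a test.

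**Figure D2:**
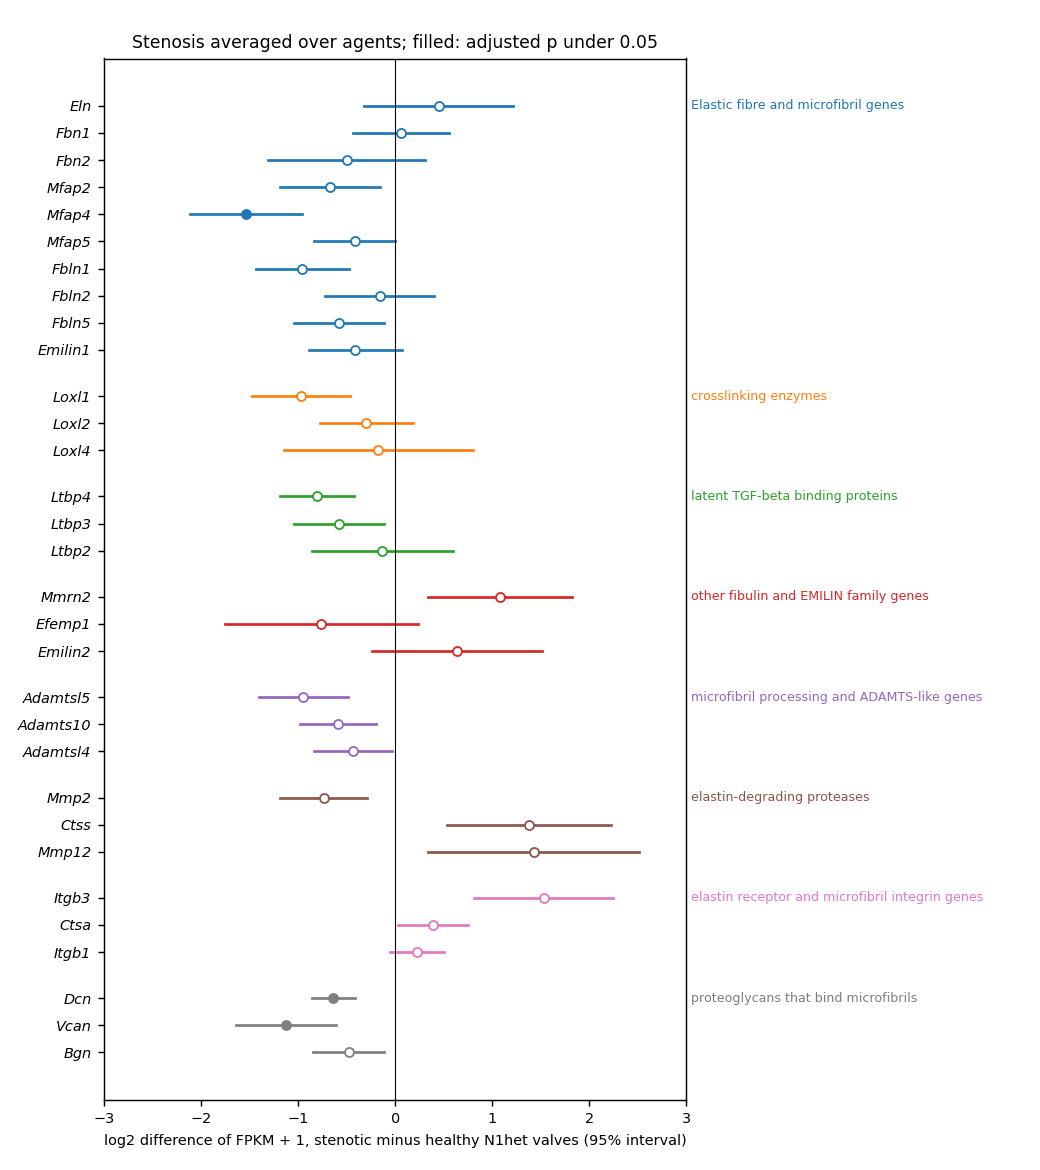
Log2 differences of FPKM + 1 between 6 stenotic and 11 healthy N1het libraries, averaged over agents, with 95% intervals, for the 10 genes and up to 3 genes with the smallest p in each of 7 related lists. Filled points passed the test: Mfap4 at -1.54, Dcn at -0.64 and Vcan at -1.12.

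Against healthy N1het valves with solvent alone (3 against 6 libraries), no member passed the test, beside 5 of 14966 genes (0.0334%), 4 lower (0.0267%) and 1 higher (0.00668%). Mfap4 differed by -1.48 ± 0.39 (SE; limma adjusted p = 0.189) and Fbln1 by -1.28 ± 0.32 (adjusted p = 0.171). Fbln1 was the only member without overlap between these groups, beside 5.46% of genes. Fbn2 lay at -1.12 ± 0.54 and Fbln5 at -0.66 ± 0.31, with adjusted p of 0.520 and 0.509. These 4 members had an unadjusted p under 0.05, as 9.6% of genes did. By the agent field these 3 stenotic libraries had received XCT790. With muscle marker levels as covariates Mfap4 passed the test (-1.84, adjusted p = 0.0399).

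Against WT valves (3 against 4 libraries, sharing the stenotic ones with the preceding comparison), no member passed the test either, beside 5 genes (0.0334%), 1 lower (0.00668%) and 4 higher (0.0267%). The WT libraries held 730, 604, 615 and 495 FPKM of Mfap4 and 256, 178, 120 and 193 FPKM of Fbln1. Both genes had all 3 stenotic libraries below all 4 WT libraries, as 8.61% of genes tested had no overlap in 1 direction or the other. The log2 differences were -1.77 ± 0.42 for Mfap4 (SE; limma adjusted p = 0.175) and -1.04 ± 0.35 for Fbln1 (adjusted p = 0.321), the only 2 members with an unadjusted p under 0.05 (10.4% of genes). In the authors' deposited table, Mfap4 is marked as changed in stenotic valves against WT and against healthy N1het valves. Fbln1 is marked only against healthy N1het valves, and no other member in any comparison. The headers of these stenosis marks name no agent, so which libraries they compare is not stated. The authors' deposited table marks 281 genes (1.35%) against WT and 262 (1.26%) against healthy N1het valves, by a test not given in the sources used here.

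Among mice treated with XCT790 by title, stenotic and healthy valves (3 against 5) differed by -1.59 ± 0.40 in Mfap4 (SE; limma adjusted p = 0.495) and by -0.63 ± 0.33 in Fbln1 (adjusted p = 0.960). No member and no gene was called (0%), while 760 genes (5.08%) and 1 member, Mfap4, had an unadjusted p under 0.05. The difference between the stenosis effects with and without XCT790 was tested as an interaction. It was -0.11 ± 0.56 for Mfap4 and 0.64 ± 0.46 for Fbln1 (limma adjusted p = 1 for both), with 95% intervals from -1.27 to 1.05 and from -0.32 to 1.60. The largest interaction estimates were 1.25 ± 0.78 for Fbn2 and 0.96 ± 0.54 for Fbln2 (adjusted p = 1). Neither passed, and no gene did (0%, with 446 genes, or 2.98%, and no member at an unadjusted p under 0.05).

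No member passed the test between N1het healthy and WT valves. The comparison (6 against 4) called 0 genes (0%), with 1111 genes (7.42%) and 0 members at an unadjusted p under 0.05. The largest estimate was that of Fbln5, whose WT libraries held 128, 85.3, 125 and 141 FPKM against 118 to 318 (median 138) in N1het healthy valves. Its log2 difference was 0.45 ± 0.28 (SE; limma adjusted p = 0.737). Mfap4 lay at -0.28 ± 0.35 and Eln at -0.11 ± 0.47, and WT 4 alone carried 152 FPKM of Eln against 27.2 to 39.3 in the other 3 WT libraries. With muscle marker levels as covariates the Mfap4 estimate took the other sign (0.40).

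XCT790 called 0 genes (0%) in healthy valves (5 against 6) and 0 genes (0%) in stenotic valves (3 against 3), so no member passed. An unadjusted p under 0.05 was found for 397 (2.65%) and 501 genes (3.35%) and for no member. In healthy valves the largest member estimates were -0.31 ± 0.24 for Mfap5 and 0.29 ± 0.30 for Mfap2 (SE; limma adjusted p = 1). In stenotic valves they were 1.23 ± 0.62 for Fbn2, 0.79 ± 0.43 for Fbln2 and 0.63 ± 0.37 for Fbln1 (adjusted p = 1). The 3 stenotic libraries with XCT790 all held more Fbln1 than the 3 with solvent, 112 FPKM or more against 106 or less, as 8.75% of genes tested had no overlap in 1 direction or the other. Mfap4 was at 198 ± 122 FPKM with XCT790 and 188 ± 80.7 with solvent (SD, n = 3 each), with a 95% interval of the log2 difference from -0.93 to 0.93. In order of group means, few neighbouring groups were farther apart than the larger of their SDs. These were N1het healthy and N1het stenosis for Fbn2, N1het healthy and N1het stenosis XCT790 for Mfap4, and both stenotic groups for Fbln1.

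**Figure D3:**
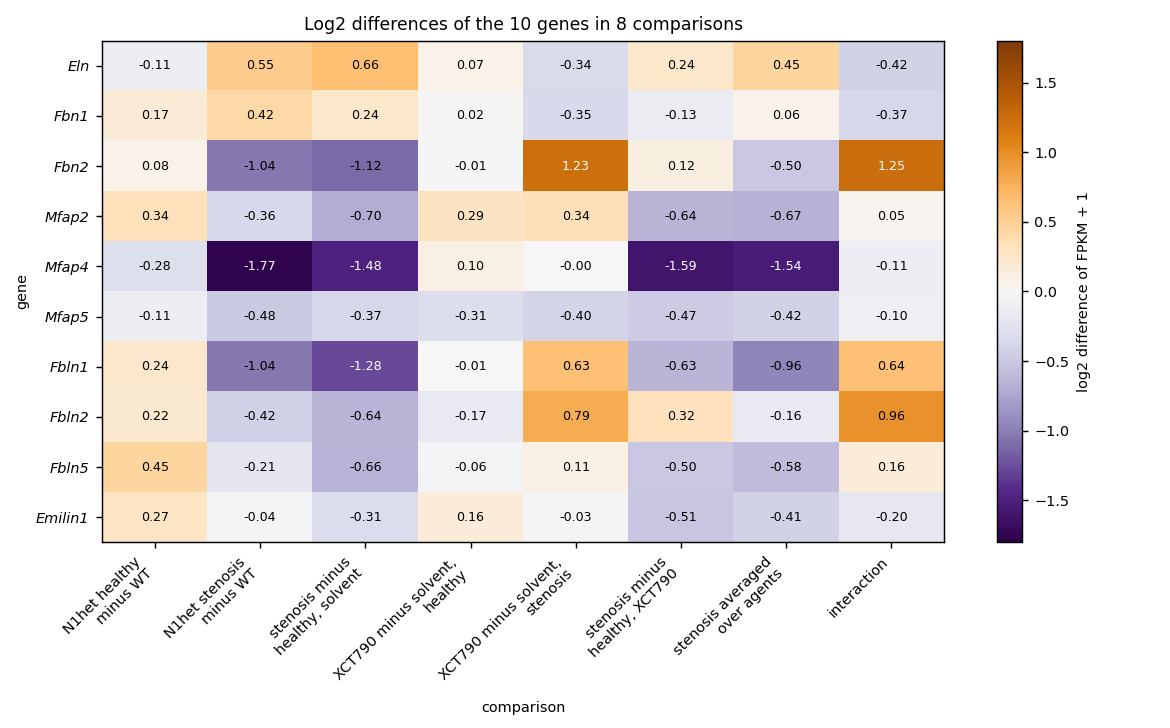
Log2 differences of FPKM + 1 for the 10 genes (rows) in 8 comparisons (columns), with colour for sign and size. In every column of stenotic against healthy N1het or WT valves, Mfap4 is between -1.48 and -1.77 and Fbln1 between -0.63 and -1.28. These columns share libraries and are not independent. The only value that passed the test is Mfap4 averaged over agents.

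The genes that build, modify or break down elastic fibres were counted in the averaged stenosis comparison. Of 5 crosslinking enzymes, 4 were lower and 1 higher, and none passed the test. Loxl1, which crosslinks tropoelastin at sites bound by fibulin-5, stood at 35.3 ± 15.5 FPKM in stenotic and 68.2 ± 21.3 in healthy N1het valves (SD), a log2 difference of -0.97 (limma adjusted p = 0.0858). Loxl2 and Loxl4 lay at -0.30 and -0.17. The 4 latent TGF-beta binding proteins were all lower without a call. Ltbp4, which guides elastin onto microfibrils with fibulin-5, stood at 132 ± 31.2 against 233 ± 60.3 FPKM (-0.81, adjusted p = 0.0562), Ltbp3 at -0.58 (0.300) and Ltbp2 at -0.13 (0.931).

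Of 10 tested microfibril processing and ADAMTS-like genes, 8 were lower and none passed, with Adamtsl5 at -0.95 (limma adjusted p = 0.0645), Adamts10 at -0.59 (0.203) and Adamtsl4 at -0.43 (0.384). Of 7 tested other fibulin and EMILIN family genes, 5 were higher and 2 lower without a call. Mmrn2, a multimerin of endothelial cells, was at 1.08 (0.219), Emilin2 at 0.64 (0.605) and Efemp1, which encodes fibulin-3, at -0.76 (0.576). Proteoglycans that bind microfibrils held the only calls in these lists, 2 of 4 genes. Dcn (decorin) fell from 4693 ± 510 to 3013 ± 316 FPKM (-0.64, adjusted p = 0.0142), and Vcan (versican) from 218 ± 85.6 to 95.2 ± 21.4 FPKM (-1.12, 0.0491). Bgn (biglycan) lay at -0.48 (0.271).

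The protease and receptor lists had mixed signs. Of 8 listed elastin-degrading proteases, 5 were higher and 3 lower without a call. Ctss, the elastase cathepsin S of macrophages, ran from 121 to 830 FPKM in stenotic and from 39.8 to 348 in healthy N1het valves (1.38, limma adjusted p = 0.156). Mmp12, macrophage elastase, lay at 1.43 (0.275) and Mmp2, a gelatinase of stromal cells, at -0.74 (0.148). Of 10 tested elastin receptor and integrin genes, 8 were higher and none passed. Itgb3, an integrin subunit that binds fibrillin, stood at 13.8 ± 6.15 against 4.29 ± 2.54 FPKM (1.53, adjusted p = 0.0527). Ctsa, of the elastin receptor complex, lay at 0.39 (0.375) and Itgb1 at 0.22 (0.542). Mmp9 and Elane were not analysed here.

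The 10 genes varied together to different degrees over the libraries. Among their 45 pairs, the median Pearson r of log2(FPKM + 1) over 21 libraries was 0.35, with 10 pairs over 0.5 and 6 pairs below 0. Mfap4 and Fbln1 had the highest r (0.80, and 0.59 over the 15 healthy libraries), followed by Fbln1 and Fbln5 (0.74 and 0.71) and by Mfap4 and Mfap5 (0.68 and 0.37). Eln had no r above 0.29 with any other member, and its lowest was -0.15 with Fbln1. All values share each library's depth and cell make-up, and they are given without a test and without the r of other gene pairs.

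**Figure D4:**
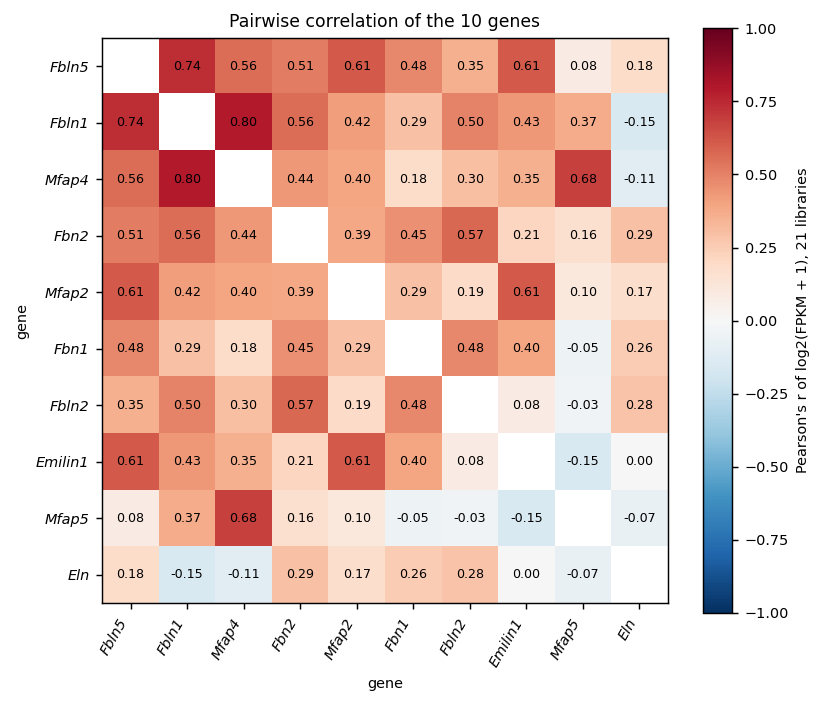
Pearson's r of log2(FPKM + 1) over 21 libraries for each pair of the 10 genes, ordered by their mean r. Mfap4 with Fbln1 (0.80) is the highest value, and the row of Eln stays between -0.15 and 0.29.

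Levels of marker lists differed along with the members in the averaged stenosis comparison. All 10 markers of valve interstitial cells and fibroblasts had lower estimates (median -0.51), and 2 passed the test, Dcn and Lum, which encodes lumican (-0.60, limma adjusted p = 0.0491). None of the 10 was at 0 in any library. All 10 macrophage markers had higher estimates (median 0.90) and 1 passed, Lyz2 (1.61, adjusted p = 0.0250). None of these was at 0 in any library. Of the 3 highest in that list, C1qb lay at 0.93 and C1qc at 0.77.

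Other lists had 0 calls. Smooth muscle markers, led by Acta2, Tagln and Myh11, were higher for 6 of 10 genes (median 0.08), and their sum ran from 145 to 2129 FPKM in stenotic and from 102 to 1805 in healthy N1het libraries. Cardiomyocyte markers, led by Tnnt2, Actc1 and Myl7, were lower for 8 of 10 (median -0.36), with sums of 90.5 to 4001 and 69.4 to 4805 FPKM. Endothelial markers, led by Pecam1, Cdh5 and Tek, were higher for 7 of 8 (median 0.46). Melanocyte markers, led by Dct, Mlana and Tyrp1, were higher for 4 of 6 (0.37). Chondrocyte markers, led by Comp, Sox9 and Col2a1, were lower for 3 of 4 tested (-0.47). Adipocyte markers were near 0 in most libraries, and of Cfd, Plin1 and Adipoq only Cfd was tested (0.85).

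The mean log2 level of the fibroblast markers had a Pearson r over 21 libraries of 0.90 with Fbln1, 0.79 with Mfap4, 0.76 with Fbln5 and 0.64 with Emilin1. Over the 15 healthy libraries these were 0.89, 0.72, 0.82 and 0.65. With Eln it was -0.18 over 21 libraries and 0.04 over the healthy ones, and with Mfap5 0.23 and -0.08. With Fbn1 it was 0.41 and 0.79, with Fbn2 0.56 and 0.45, with Mfap2 0.52 and 0.39, and with Fbln2 0.46 and 0.65. Macrophage markers had r of -0.78 with Mfap4 and -0.74 with Fbln1, and over the healthy libraries -0.41 and -0.44. Without the 7 libraries rich in heart muscle, also chosen after seeing the data, Mfap4 was at -2.10 ± 0.26 (SE; limma adjusted p = 0.00566) and Fbln1 at -1.27 ± 0.32 (0.107). This left out 2 stenotic libraries, those with the highest stenotic Mfap4 levels (277 and 338 FPKM). It also left out 4 healthy N1het libraries, among them the one with the lowest Mfap4 level (224 FPKM).

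**Figure D5:**
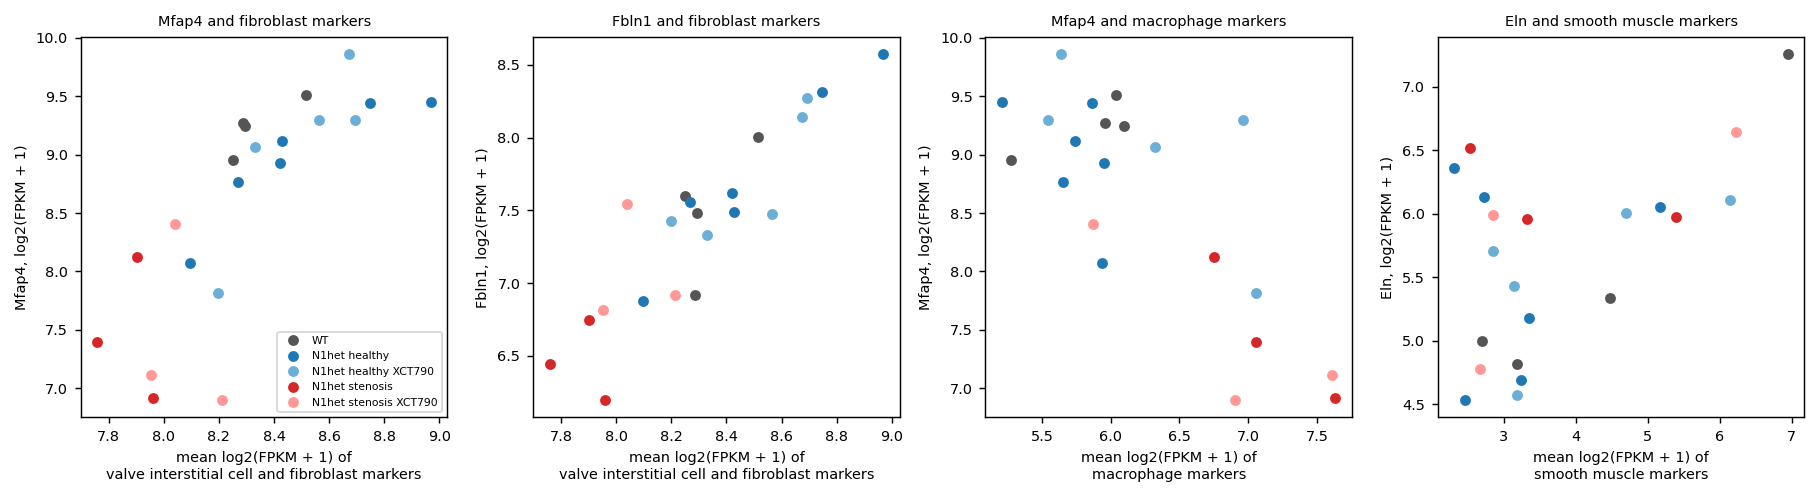
Log2(FPKM + 1) of Mfap4, Fbln1 and Eln in each of 21 libraries against the mean log2 level of a marker list, coloured by group. Mfap4 and Fbln1 are higher where fibroblast markers are higher (r = 0.79 and 0.90), Mfap4 is lower where macrophage markers are higher (-0.78), and Eln is highest in WT 4, at a smooth muscle level of 6.94.

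Smooth muscle markers had the highest r with Eln among 4 lists compared. That r with the mean level of smooth muscle markers was 0.55 over 21 libraries and 0.62 over the healthy ones, but Spearman's rho was 0.32 and 0.29. WT 4 had both the highest Eln and the highest smooth muscle level, 6.94 on the log2 scale, and also counted among the 7 libraries rich in heart muscle. The part of these cells in the Eln values was not tested.

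Across all other tested genes, the pattern most like the mean of the 10 standardized members was that of Maged1 (r = 0.91), then Kdelr2 (0.87), Ptges (0.86), Sod3 (0.83) and Islr (0.82). Col5a1 (0.82), C1qtnf1 (0.81), Cercam (0.80), Col1a2 (0.80) and Antxr1 (0.79) completed the 10 highest over 21 libraries. Col5a1 and Col1a2 encode collagen chains. The lowest were Srgn (-0.86), Mthfs (-0.86), Aif1 (-0.84), Klf6 (-0.84) and Rgs1 (-0.83), of which Aif1 is a macrophage gene. None of these 15 passed the averaged stenosis test, with Sod3 at -0.95 (limma adjusted p = 0.0995) and Aif1 at 1.18 (0.0984).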

How the data were processed

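Per the labels' protocols, valve RNA of the 21 libraries was isolated by Qiagen RNeasy Micro columns and amplified by NuGEN Ovation chemistry. FastQC, HISAT2, SAMtools and Picard with build mm9 are named in the submitters' processing notes. How reads were counted, over which annotation and on which strand, is not stated, and overlapping genes may share reads. The authors deposited FPKM per library and group means, per the file headers, and 0 or 1 marks of changed genes (other values of the authors' own, by an unstated test).

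All nonzero FPKM were whole multiples of a read's worth within 0.01 reads (100%), which gave the depth of each library. A gene seen in 1 library fits by construction, and 903 genes were seen in only 1 or 2 libraries. The recovered, amplified reads are not independent molecules. After 5906 genes averaging under 1 FPKM were left out, log2(FPKM + 1) of the remaining 14966 was fitted with limma 3.58.1 in R 4.3.3 as 5 group means over all libraries. Variances followed the trend with level and were robust to extreme genes. Genes with a Benjamini-Hochberg adjusted p under 0.05 within a contrast were called; the 8 contrasts were not adjusted together. Folds are on the log2(FPKM + 1) scale, which understates low genes. The fit was tested on simulated data with independent noise per gene, which held no differences in depth or cell make-up between libraries. The labels do not say that libraries are separate animals, so p-values measure the spread between libraries, which may be technical. Promoters are from RefSeq GRCm38.p6, not the build of the expression table, and no coordinates were converted.

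The 10 members, the 7 pathway and 8 marker lists and the tests were chosen with earlier results of these data known. Named are all members, up to 3 genes with the smallest p per pathway list and all called ones, 3 markers of the highest level per marker list, Notch1, Esrra, and the 10 genes most and 5 least like the members' mean pattern. Lists were matched by symbol, and 3 genes by identifier. Alternatives covered the pseudocount, filters, scaling, samples in the fit, replicate block, deep set, muscle and fibroblast markers, agent labels, voom on recovered reads (limma, statmod 1.5.0) and each library left out.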

Additional observations from a re-analysis of the deposited data

Results flagged for a closer look

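Eln in WT 4 stood at 152 FPKM, far above the other 3 WT libraries (27.2 to 39.3 FPKM) relative to the range of the group. It was the 1 such case among 30 combinations of a member and a group of 4 to 10 libraries, of which chance alone marks about 1 in 20. WT 4 also had the highest smooth muscle marker level of the 21 libraries (6.94), and the part of that in the Eln value was not tested.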

How the results depend on the processing

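The averaged stenosis comparison called 1 member, Mfap4, which kept a negative difference in all 33 alternatives (-2.10 to -0.69, limma adjusted p 0.00403 to 0.848). The count was 2, with Fbln1 added, with the replicate block, with the deep set as a covariate, with muscle markers as covariates and with voom quality weights. It was 0 outside the deep set and with fibroblast markers as a covariate, and 0 to 2 when 1 library was left out. Same-numbered libraries of different groups did not deviate together (r from -0.11 to 0.13 in 34 pairs, against -0.18 to 0.24 in 139 other pairs). These r showed no pairing by number but cannot exclude it. The block raised the calls over all genes from 56 to 97. Other settings gave 0 (outside the deep set, or fibroblast markers as a covariate) to 134 calls (muscle markers as covariates), beside 85 with voom, 124 with quality weights and 35 without libraries rich in heart muscle. Leaving out 1 library gave 2 (N1het stenosis 3) to 78 calls. In stenotic against healthy valves with solvent, 1 member (Mfap4) was called with muscle markers as covariates. Of the members not called, several took the other sign. Fbn1 averaged over agents went from 0.06 to -0.018 with muscle markers, to -0.16 without libraries rich in heart muscle and ran from -0.041 to 0.15 with 1 library left out; with solvent it went from 0.24 to -0.053 without libraries rich in heart muscle. Fibroblast markers as a covariate gave 0.30 for Fbn2, 0.50 for Fbln2, 0.16 for Fbln5 and 0.25 for Emilin1. With that covariate Fbn1 averaged over agents kept its sign but rose to 0.96 ± 0.25 (SE, limma adjusted p = 0.582). Fbln2 was at 0.13 outside the deep set and between -0.38 and 0.025 with 1 library left out. Mfap4 in N1het healthy against WT was 0.40 with muscle markers. With XCT790 in healthy valves Mfap4 was -0.39 with muscle markers, -0.55 by the agent field and -0.094 to 0.42 with 1 library left out. Mfap5 was 0.076 without libraries rich in heart muscle, and Fbln1 was 0.024 outside the deep set, 0.10 with quality weights and -0.18 to 0.16 with 1 library left out. With XCT790 in stenotic valves Mfap4 was 0.28 outside the deep set, 0.016 with voom, 0.013 with quality weights and -0.47 to 0.32 with 1 library left out. Its interaction was 0.28 outside the deep set, 0.35 with muscle markers and -0.57 to 0.21 with 1 library left out. The causes were not tested. The agent field leaves no solvent-treated stenotic group, so comparisons that need one gave no value under it. Low read numbers limit Fbn2, with 0 to 65 reads in stenotic valves with solvent.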
